A study of Mus musculus with 16 samples.

Results

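The collagen family was followed here through the liver of mice with and without hepatocyte HIRA, before and after the liver regrew. Its members were every row of the count table whose gene name is Col, a number, the letter a and a further number, provided that the 16 columns together held 10 counts or more. Of 55421 rows, 44 carried such a name and 39 passed the count minimum, out of 23018 genes that passed it in all. The 5 names that did not pass were Col11a1 with 9 counts in total, Col9a1 with 5, Col2a1 with 3, Col26a1 with 3 and Col19a1 with 1, and they were not tested.

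Collagens are the main structural proteins of the extracellular matrix. Each is a trimer of alpha chains in which glycine recurs at a fixed spacing, so that the chains can wind into a tight triple helix. Fibrillar chains such as those of types I, III and V build the fibres of scar and capsule, type IV chains build the network of basement membranes, type VI chains form beaded filaments, fibril associated chains decorate fibres, and the multiplexins (types XV and XVIII) carry a helix with many breaks and release fragments from their C-terminal end. In the liver, stellate cells, portal fibroblasts and vascular cells are the usual source of fibrillar collagen, while type XVIII is well known as a product of hepatocytes.

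The samples were bulk liver RNA from male C57BL/6 mice, 4 per group in 4 groups, sequenced from polyadenylated transcripts. HIRA is a histone chaperone that places the variant histone H3.3 into chromatin outside replication. At 6 months of age mice received AAV8 virus driven by the hepatocyte promoter Tbg, and 4 weeks later 70% of the liver was removed by partial hepatectomy. The removed left lateral and median lobes gave the samples before regeneration, and the right and caudate lobes taken 5 days later gave the samples after it. The HIRA KO groups held 2 HIRA fl/fl mice given AAV8 Tbg-Cre and 2 wildtype mice given AAV8 Tbg-saCAS9 with a U6-sgRNA against HIRA. The control groups held 2 wildtype mice given AAV8 Tbg-Cre and 2 given the same Cas9 vector with a guide against Rosa26. The Tbg promoter acts in hepatocytes, so the cells usually named as the source of fibrillar collagen are not its target. Lobe, surgery and time changed together between before and after and cannot be told apart.

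Total counts ranged from 15103059 to 21738619 per column. The headers of the count table give group and a running number from 1 to 4 that no label explains, so columns were matched to groups and not to single mice or to a deletion approach. Hira itself lay between 3.04 and 4.56 CPM in the HIRA KO columns and between 4.99 and 6.29 CPM in the control columns, with no overlap. CPM is reads counted for a gene relative to the library size, after scaling of the sizes by TMM.

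HIRA KO columns 1 and 2 stood apart from the other columns at both times on the second principal component of all genes, and they held the highest value of 26 of the 39 collagens before regeneration. In HIRA KO column 1 before regeneration the 3 smooth muscle markers Myh11, Cnn1 and Actg2 summed to 110 CPM, against 8.27 in column 2 and 2.32 to 4.52 in the other 6 columns before regeneration. The 5 markers of activated stellate cells or myofibroblasts summed to 121 and 33.5 CPM in HIRA KO columns 1 and 2, against 13.0 to 17 in the other 6. The 6 portal fibroblast markers summed to 37.7 and 22.2 CPM there, against 9.68 to 12.4. Of the 6 cholangiocyte markers, which label bile duct cells, all 6 had a higher fitted level in HIRA KO and none passed, and their sum was 143 and 97.4 CPM in HIRA KO columns 1 and 2 against 47.8 to 73.7 CPM. Krt19, a keratin of bile ducts, stood at 52.7 and 4.40 CPM there against 1.18 to 2.01 CPM. None of these markers was at 0 in every column of a group. Of the 9 stellate cell markers all 9 had a higher fitted level in HIRA KO than in control before regeneration, and none passed the test. Their part in the collagen results was not tested, and in bulk RNA more cells of a type and more RNA per cell cannot be told apart. Each comparison of the collagens is therefore given with and without HIRA KO columns 1 and 2.

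**Figure D1:**
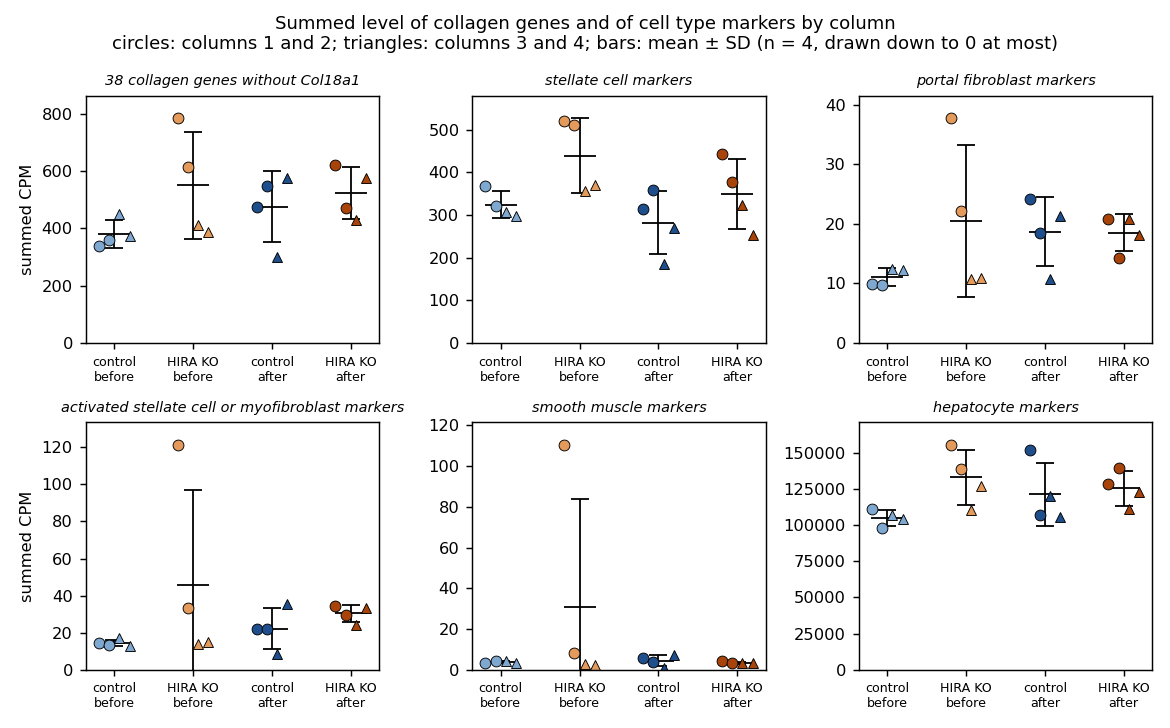
Summed CPM (vertical axis) of 38 collagen genes without Col18a1 and of 5 lists of cell type markers in each column, by group. Points are columns (circles 1 and 2, triangles 3 and 4) and bars are mean ± SD of 4 columns; HIRA KO column 1 before regeneration reached 785 CPM for the collagens and 110 CPM for the smooth muscle markers.

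The coding sequences show what defines the family and how far its classes differ. In the GENCODE M21 transcript with the longest coding sequence of each member, the longest unbroken run of triplets that open with a glycine codon held 28 to 344 triplets. The longest runs belonged to 7 fibrillar chains: Col1a1 (338), Col1a2 (339), Col3a1 (344), Col5a1 (338), Col5a2 (339), Col5a3 (337) and Col11a2 (338). In Col4a5 the longest run held 42 triplets, and in Col18a1 it held 30 triplets, or 5.07% of its 1774 codons. The first 45 bases of that longest run are shown for Col1a1 and Col3a1 (fibrillar), Col4a5 (basement membrane) and Col18a1 (multiplexin), read 5′ to 3′ on the coding strand with each triplet-opening glycine codon in capitals.
Col1a1: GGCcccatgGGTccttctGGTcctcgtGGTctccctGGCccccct
Col3a1: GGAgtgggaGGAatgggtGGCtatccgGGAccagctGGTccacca
Col4a5: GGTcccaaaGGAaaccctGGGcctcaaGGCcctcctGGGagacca
Col18a1: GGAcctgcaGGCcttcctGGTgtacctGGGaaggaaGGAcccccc
On GRCm38 the Col1a1 stretch spans exons 6 and 7 of 51 (chr11:94939451-94939732, + strand) and the Col3a1 stretch exons 5 and 6 of 51 (chr1:45323762-45325368, + strand). The Col4a5 stretch lies in exon 41 of 53 (chrX:141656825-141656869, + strand) and the Col18a1 stretch in exon 12 of 41 (chr10:77077702-77077746, − strand).

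Several members sit beside each other in the genome. The basement membrane genes form 3 head-to-head pairs in the GRCm38 annotation: Col4a1 and Col4a2 on chromosome 8 start 21 bases apart and overlap, Col4a3 and Col4a4 on chromosome 1 start 72 bases apart, and Col4a5 and Col4a6 on the X chromosome start 1309 bases apart. Col3a1 and Col5a2 lie tail to tail on chromosome 1 with 24614 bases between them, and Col6a4, Col6a5 and Col6a6 follow each other on 1 strand of chromosome 9. Exons of 13 members overlap an exon of another gene, 3 of them on the same strand (Col3a1, Col7a1 and Col20a1), and whether the counting used strand is not given in the sources used here.

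Promoter sequence from RefSeq (GRCm38.p6) was at hand for 32 of the 39 members, with 34 start sites. Upstream stretches that touch no annotated exon are shown for 5 genes the results below turn on: Col3a1, Col4a5, Col4a6, Col18a1 and Col27a1. They read 5′ to 3′ towards the start site on the gene's strand, and capitals mark the motifs searched on either strand. These were the CCAAT box, the TATAAA box of core promoters and the GGGCGG core of the GC box. For Col18a1 the stretch belongs to a single start site. Another RefSeq start site of Col18a1 left only 9 bases free of exons (chr10:77113947-77113955, − strand), which are not shown. The Col27a1 stretch lies inside the gene as GENCODE M21 annotates it (chr4:63214004-63334991, + strand). It is therefore upstream only of a RefSeq start site within that gene. Which start site the liver transcripts of either gene used was not tested.
Col3a1 (chr1:45311288-45311537, + strand): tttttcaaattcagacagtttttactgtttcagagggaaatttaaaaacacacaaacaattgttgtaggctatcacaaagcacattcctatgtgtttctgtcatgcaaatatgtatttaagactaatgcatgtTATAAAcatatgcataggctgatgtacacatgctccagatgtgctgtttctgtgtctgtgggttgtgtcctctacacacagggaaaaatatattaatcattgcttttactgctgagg
Col4a5 (chrX:141475169-141475384, + strand): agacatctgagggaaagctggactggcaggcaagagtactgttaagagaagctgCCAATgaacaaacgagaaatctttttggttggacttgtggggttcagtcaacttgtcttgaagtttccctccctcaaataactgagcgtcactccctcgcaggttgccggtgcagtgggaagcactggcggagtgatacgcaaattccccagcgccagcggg
Col4a6 (chrX:141474077-141474326, − strand): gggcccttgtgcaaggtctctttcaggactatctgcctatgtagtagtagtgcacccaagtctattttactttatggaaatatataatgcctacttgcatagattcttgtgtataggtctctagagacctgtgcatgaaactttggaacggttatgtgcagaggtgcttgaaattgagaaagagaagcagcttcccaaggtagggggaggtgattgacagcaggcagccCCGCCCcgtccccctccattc
Col18a1 (chr10:77166549-77166780, − strand): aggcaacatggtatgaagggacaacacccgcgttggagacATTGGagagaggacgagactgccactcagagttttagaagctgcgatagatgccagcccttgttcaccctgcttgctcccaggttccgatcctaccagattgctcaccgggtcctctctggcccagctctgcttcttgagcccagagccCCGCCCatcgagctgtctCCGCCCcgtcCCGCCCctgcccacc
Col27a1 (chr4:63215162-63215411, + strand): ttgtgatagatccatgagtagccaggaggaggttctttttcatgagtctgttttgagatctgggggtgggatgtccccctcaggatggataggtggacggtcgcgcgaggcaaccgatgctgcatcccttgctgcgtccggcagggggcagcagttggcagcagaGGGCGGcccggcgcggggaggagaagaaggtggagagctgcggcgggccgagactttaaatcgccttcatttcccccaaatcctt
In the 250 bases upstream, GGGCGG was found in 21 of the 34 collagen promoters (61.8%) and in 32.7% of all 32851 promoters of the table. CCAAT was found in 32.4% of the collagen promoters and 33.8% of all, and TATAAA in 14.7% and 12.4%. These are matches of letters on either strand and no test was run on them.

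Col18a1 was the most abundant collagen transcript of the liver in every column. Per length, in the FPKM that the authors deposited, it averaged 154 over the 16 columns (range 103 to 207). Col3a1, the chain of the homotrimeric type III fibre, came next over all columns with 18.3 FPKM (5.39 to 40.6), followed by the fibrillar chain Col5a3 with 9.38, the fibril associated chain Col14a1 with 8.90 and the basement membrane chain Col4a1 with 8.02. Col1a1 and Col1a2, the chains of type I collagen, averaged 4.41 and 4.99 FPKM, and their ranges over columns (1.08 to 12.1 and 1.29 to 11.0) overlapped. In control before regeneration the order was different: Col5a3 (10.1 ± 1.66 FPKM, SD, n = 4), Col27a1 (8.84 ± 2.87) and Col14a1 (7.51 ± 0.679) had higher means than Col3a1 (6.92 ± 1.28), with overlapping columns for Col27a1 and Col14a1. In control before regeneration Col18a1 supplied 74.1% to 79.1% of all collagen counts, and in HIRA KO columns 1 and 2 before regeneration 48.4% and 55.9%.

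Before regeneration the 39 genes together reached 1614 ± 96.1 CPM (SD, n = 4) in the controls and 1436 ± 57.4 CPM in HIRA KO. After regeneration they reached 1400 ± 329 CPM in the controls and 1142 ± 135 CPM in HIRA KO. Without Col18a1 the other 38 genes summed to 339, 359, 450 and 372 CPM in control columns 1 to 4 before regeneration and to 785, 616, 410 and 388 CPM in HIRA KO. The first pair of HIRA KO columns lay above all controls, and columns 3 and 4 lay within the control range.

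The comparison of HIRA KO with control before regeneration asks whether loss of the chaperone from hepatocytes changes collagen expression in the liver before surgery. None of the 39 members passed an adjusted p of 0.05 in edgeR's quasi-likelihood test, where 0.0391% of all genes did. At an unadjusted p below 0.05 there were 14 members, against 13.2% of all genes, and DESeq2 called 3 (Col3a1, Col4a5 and Col5a2, all higher), against 1.66% of all genes. In the fit 30 members were higher and 9 lower in HIRA KO, with a median log2 fold change of 0.65 against 0.01 over all genes, a median that was 0.055 without HIRA KO columns 1 and 2. Groups did not overlap for 4 members, where 8.07% of all genes had no overlap: Col4a5, Col4a6 and Col7a1 were higher and Col18a1 was lower in every HIRA KO column than in any control column. For Col4a6 the lowest HIRA KO column (0.272 CPM) was barely above the highest control (0.269 CPM), and for Col7a1 these were 1.02 and 0.916 CPM. In the deposited FPKM Col4a5 and Col18a1 did not overlap either, but Col4a6 and Col7a1 did. Col7a1 averaged 0.385 FPKM in control (0.0808 to 0.637) and 0.365 in HIRA KO (0.142 to 0.532).

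Type I collagen is the main fibre of scar tissue. Col1a1 stood at 7.81, 8.71, 13.8 and 9.65 CPM in control columns 1 to 4 and at 62.0, 43.9, 8.50 and 8.83 CPM in HIRA KO. Its log2 fold change was 1.63 ± 0.72 (SE, adjusted p = 0.362 in edgeR). Col1a2 stood at 9.40, 12.7, 16.3 and 11.8 CPM in control and at 68.6, 40.5, 13.9 and 13.1 in HIRA KO, with a log2 fold change of 1.44 ± 0.55 (adjusted p = 0.305, edgeR). In both chains the HIRA KO columns 1 and 2 lay above every control column, and columns 3 and 4 lay within the control range.

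Col3a1 showed the same division of columns. It stood at 21.1, 24.3, 31.8 and 22.4 CPM in control and at 147, 99.9, 23.9 and 24.7 CPM in HIRA KO, a log2 fold change of 1.57 ± 0.53 (adjusted p = 0.258, edgeR). Without HIRA KO columns 1 and 2 the log2 fold change was -0.04 for Col3a1 and -0.20 for Col1a1, so that both changed sign.

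The ubiquitous basement membrane chains moved less. Col4a1 stood at 28.8, 33.7, 34 and 29.8 CPM in control and at 73.9, 58.0, 30.05 and 37.0 in HIRA KO (log2 fold change 0.66 ± 0.26, adjusted p = 0.316, edgeR). Col4a2, its partner in the heterotrimer, stood at 22.5, 22.2, 23.5 and 21.0 CPM in control and at 46.5, 36.2, 21.3 and 25.0 in HIRA KO (log2 fold change 0.53 ± 0.26, adjusted p = 0.407, edgeR). For both chains the groups overlapped.

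Col4a5, a chain of the specialised basement membrane network best known from kidney and mutated in X-linked Alport syndrome, had the smallest p of the family. It stood at 1.39, 1.72, 1.20 and 0.947 CPM in control and at 8.52, 6.74, 2.45 and 3.01 CPM in HIRA KO. All 4 HIRA KO columns were above all 4 control columns, with a log2 fold change of 1.97 ± 0.37 (adjusted p = 0.0696, edgeR, and 7.13e-05 to 0.424 over its 20 alternatives). Leaving out HIRA KO column 3 or 4 brought it past the threshold (adjusted p = 0.0222 and 0.0290, edgeR), and without HIRA KO columns 1 and 2 its log2 fold change was 1.04 (adjusted p = 0.424, edgeR).

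Its head-to-head neighbour Col4a6 stood at 0.249, 0.269, 0.114 and 0.237 CPM in control and at 3.23, 0.4001, 0.272 and 0.689 CPM in HIRA KO (log2 fold change 2.39 ± 0.73, adjusted p = 0.203, edgeR). The level in HIRA KO column 1 rested on 61 counts, against 4 to 11 counts in the other 3 HIRA KO columns. Col28a1, a rare chain with von Willebrand factor domains, had 0 counts in control and 11 in HIRA KO (adjusted p = 0.214, edgeR). The HIRA KO counts were 4, 4, 3 and 0 in columns 1 to 4. Against a floor of 3 counts over the control group they gave 4.15-fold, without allowance for their own error. The deposited FPKM of Col28a1 was not 0 throughout in control, at 0.0101 and 0.00992 in columns 2 and 3, against 0 to 0.0521 in HIRA KO.

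Col18a1 went the other way. It stood at 1280, 1247, 1284 and 1126 CPM in control and at 736, 781, 1000 and 1026 CPM in HIRA KO before regeneration. All HIRA KO columns were below all control columns, columns 3 and 4 included, and the log2 fold change of -0.48 did not pass the test (adjusted p = 0.312, edgeR). Of the 6 hepatocyte markers 3 had a higher and 3 a lower fitted level in HIRA KO, and none passed. Their sum, mostly albumin (Alb), was 110692 to 155456 CPM in the HIRA KO columns and 97974 to 110909 CPM in the controls, while Apoa1 stood at 2384 to 5704 CPM against 5516 to 8268 and Serpina1a at 692 to 924 CPM against 1065 to 1417. Their part in the level of Col18a1 was not tested.

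**Figure D2:**
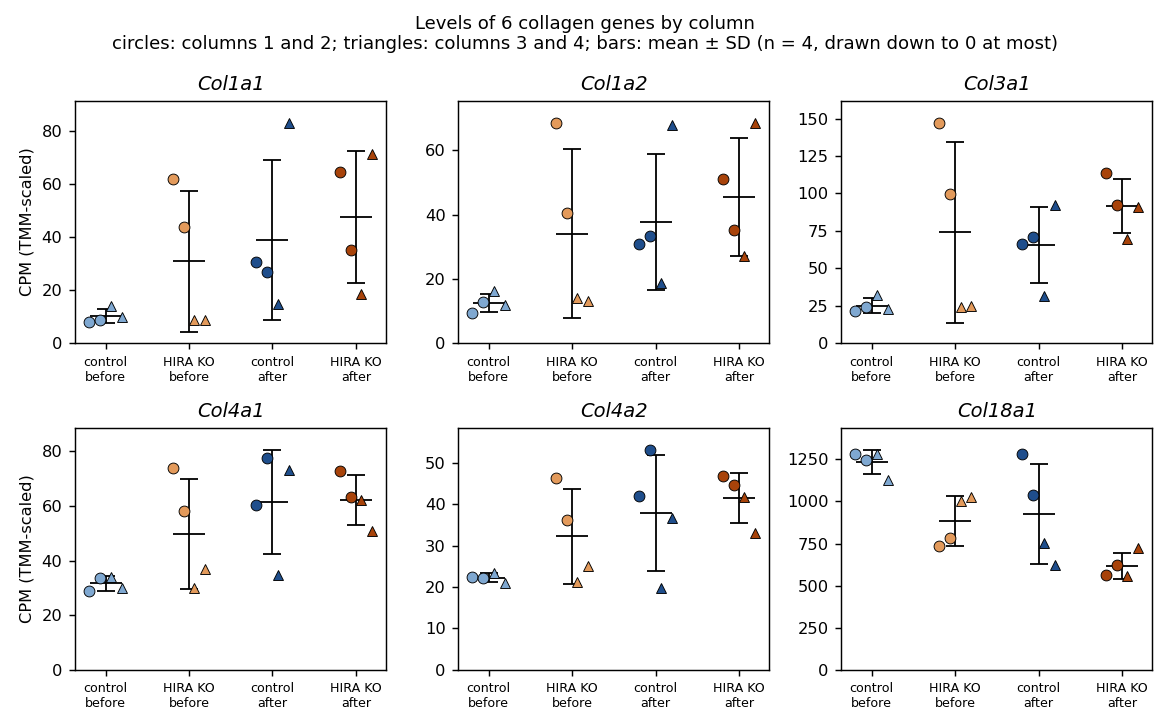
CPM (vertical axis, from 0) of Col1a1, Col1a2, Col3a1, Col4a1, Col4a2 and Col18a1 in each column of the 4 groups; circles are columns 1 and 2, triangles columns 3 and 4, bars mean ± SD of 4 columns. Before regeneration Col3a1 reached 147 and 99.9 CPM in HIRA KO columns 1 and 2 against 21.1 to 31.8 CPM in control, while Col18a1 lay below the controls in all 4 HIRA KO columns.

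Fitted with a mean for each group and pair of columns, 13 members passed the test in columns 1 and 2, 11 higher and 2 lower, where 8.55% of all genes passed. The median log2 fold change of the 39 members was 1.08 there. The pairs come from the header numbers, correspond to no label, and were taken up with the distance of HIRA KO columns 1 and 2 already known, so these counts describe those columns and not the group. The higher members were Col3a1 and Col5a2 among fibrillar chains, Col4a2, Col4a5 and Col4a6 among basement membrane chains, Col6a1, Col6a2 and Col6a3 of the beaded filament, the fibril associated Col14a1 and Col16a1, and Col7a1 of the anchoring fibril. Their log2 fold changes ran from 0.89 (Col4a2) to 2.81 (Col4a6). The lower ones were the transmembrane collagen Col13a1 (-1.46) and Col18a1 (-0.74).

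In columns 3 and 4 no member passed, at a background of 0.0478%, and 1 had an unadjusted p below 0.05 (5.36% of all genes). There 21 members were higher and 18 lower, with a median of 0.015. That member was Col4a5, with a log2 fold change of 1.34 ± 0.31 (adjusted p = 0.269, edgeR). Col1a1 had a log2 fold change of 2.68 in columns 1 and 2 and -0.44 in columns 3 and 4. The difference between the pairs of columns passed for no member (0.426% of all genes), with 14 at an unadjusted p below 0.05 (2315 of all 23018 genes). The smallest p was that of Col13a1 (difference -1.46 ± 0.37, adjusted p = 0.0965, edgeR). Leaving HIRA KO columns 1 and 2 out and keeping all controls, an alternative chosen after seeing the data, gave no call (0.0217% of all genes passed) and 3 members at an unadjusted p below 0.05 (6.23%). It left 22 members higher and 17 lower in HIRA KO, with a median of 0.055 against -0.035 over all genes.

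**Figure D3:**
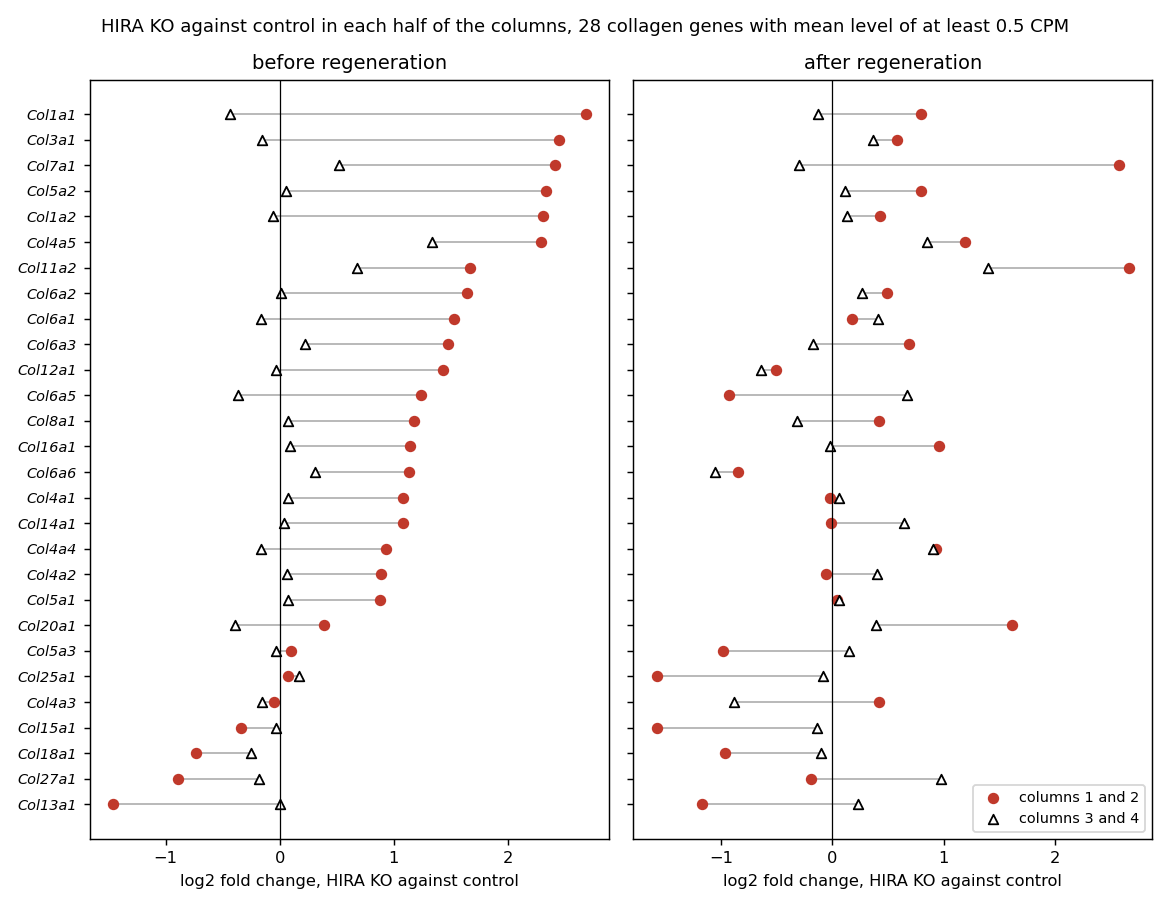
log2 fold change of HIRA KO against control (horizontal axis) for the 28 collagen genes with a mean of at least 0.5 CPM, before (left) and after regeneration (right), estimated in columns 1 and 2 (filled circles) and in columns 3 and 4 (open triangles). Before regeneration Col1a1 read 2.68 in columns 1 and 2 and -0.44 in columns 3 and 4, while Col4a5 was above 0 in both pairs at both times.

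After regeneration the same genotype comparison again gave no called member (0.491% of all genes passed), with 7 at an unadjusted p below 0.05 (15.8% of all genes) and 1 call by DESeq2, Col11a2 (3.95% of all genes). In the fit 29 members were higher and 10 lower, with a median log2 fold change of 0.27 against 0.02 over all genes. With HIRA KO columns 1 and 2 left out, 19 were higher and 20 lower. Groups did not overlap in CPM for 2 members, Col11a2 and Col4a5, where 8.10% of all genes had no overlap. In the deposited FPKM both overlapped. Col11a2 had 0.121 to 0.873 FPKM in control and 0.260 to 1.80 in HIRA KO, and Col4a5 had 0.145 to 0.355 and 0.303 to 0.680.

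Col11a2, a fibrillar chain best known from cartilage, had the smallest p. It stood at 0.940, 0.802, 0.491 and 0.624 CPM in control and at 6.89, 4.22, 1.94 and 1.00 CPM in HIRA KO, with a log2 fold change of 2.30 ± 0.61 (adjusted p = 0.0901, edgeR, and 0.00435 to 0.647 over its 20 alternatives). Without HIRA KO column 4 it passed (adjusted p = 0.0306, edgeR), and without columns 1 and 2 its log2 fold change was 1.06 (adjusted p = 0.416, edgeR). Before regeneration the groups overlapped, with 0.647 to 2.53 CPM in control and 1.63 to 6.61 CPM in HIRA KO.

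Col4a5 kept the order it had before. It stood at 1.94, 1.49, 0.981 and 1.49 CPM in control and at 4.31, 3.55, 2.37 and 2.11 CPM in HIRA KO, a log2 fold change of 1.07 ± 0.37 (adjusted p = 0.167, edgeR). In CPM, but not in FPKM, all HIRA KO columns were above all controls. In columns 3 and 4 alone the log2 fold change was 0.85 ± 0.30 (adjusted p = 0.367, edgeR, and 0.00864 to 0.493 over its 20 alternatives at this time).

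Col18a1 stood at 1283, 1039, 753 and 624 CPM in control and at 564, 625, 556 and 725 CPM in HIRA KO after regeneration, so that the groups overlapped (log2 fold change -0.58 ± 0.19, adjusted p = 0.149, edgeR). The controls were spread over a range larger than the difference of the means, 925 and 617 CPM.

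For the abundant fibrillar and basement membrane chains the genotypes overlapped after regeneration. Col1a1 stood at 30.5, 26.7, 14.9 and 83.2 CPM in control and at 64.6, 35.1, 18.5 and 71.6 in HIRA KO (log2 fold change 0.29 ± 0.69, adjusted p = 0.883, edgeR). Col1a2 stood at 30.9, 33.4, 18.8 and 68.0 CPM in control and at 51.3, 35.3, 27.1 and 68.5 in HIRA KO (0.27 ± 0.53, adjusted p = 0.856, edgeR). For both chains column 4 was the highest in each genotype and column 3 the lowest.

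Col3a1 stood at 66.3, 71.1, 31.6 and 92.5 CPM in control and at 114, 92.4, 69.3 and 90.9 in HIRA KO (log2 fold change 0.49 ± 0.51, adjusted p = 0.702, edgeR). Col4a1 stood at 60.3, 77.6, 34.8 and 73.0 CPM in control and at 72.9, 63.1, 62.1 and 50.7 in HIRA KO (0.02 ± 0.26, adjusted p = 0.982, edgeR). Col4a2 stood at 42.0, 53.2, 19.7 and 36.8 CPM in control and at 46.9, 44.7, 41.7 and 33.1 in HIRA KO (0.13 ± 0.26, adjusted p = 0.853, edgeR). Control column 3 was the lowest column for all of these chains, and the sum of the 38 genes without Col18a1 was 301 CPM in it against 475 to 575 CPM in the other control columns.

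In columns 1 and 2 after regeneration 8 members passed, where 12.4% of all genes did. These pairs too were taken up with the distance of HIRA KO columns 1 and 2 already known. Counts and p-values for the pairs therefore describe those columns and not the group. Higher in HIRA KO were Col7a1 (log2 fold change 2.57), Col11a2 (2.67), Col4a5 (1.20) and Col20a1 (1.62), and lower were Col15a1 (-1.58), Col18a1 (-0.97), Col13a1 (-1.17) and Col5a3 (-0.98). In columns 3 and 4 no member passed (0.200% of all genes), with 5 at an unadjusted p below 0.05 (9.35% of all genes). The difference between the pairs of columns passed for 3 members, where 2.93% of all genes passed.

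Those 3 were Col15a1, Col7a1 and Col13a1. Col15a1, the multiplexin of vascular basement membranes, stood at 27.1, 31.2, 24.5 and 27.6 CPM in control and at 11.6, 7.95, 21.1 and 26.3 CPM in HIRA KO, so that HIRA KO columns 1 and 2 were the lowest of the 8 (difference -1.44 ± 0.31, adjusted p = 0.0176, edgeR). Col7a1, the chain of anchoring fibrils, stood at 0.188, 0.229, 0.436 and 0.336 CPM in control and at 1.496, 1.07, 0.190 and 0.445 CPM in HIRA KO (difference 2.87 ± 0.74, adjusted p = 0.0396, edgeR). Col13a1 stood at 5.83, 5.33, 2.73 and 3.07 CPM in control and at 2.86, 2.09, 3.79 and 3.01 CPM in HIRA KO (difference -1.40 ± 0.37, adjusted p = 0.0467, edgeR). HIRA KO columns 1 and 2 were the highest of the 8 for Col7a1, and control columns 1 and 2 were the highest for Col13a1. Without HIRA KO columns 1 and 2 no member was called between genotypes after regeneration (0.0825% of all genes passed), and 3 had an unadjusted p below 0.05 (10.5% of all genes).

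**Figure D4:**
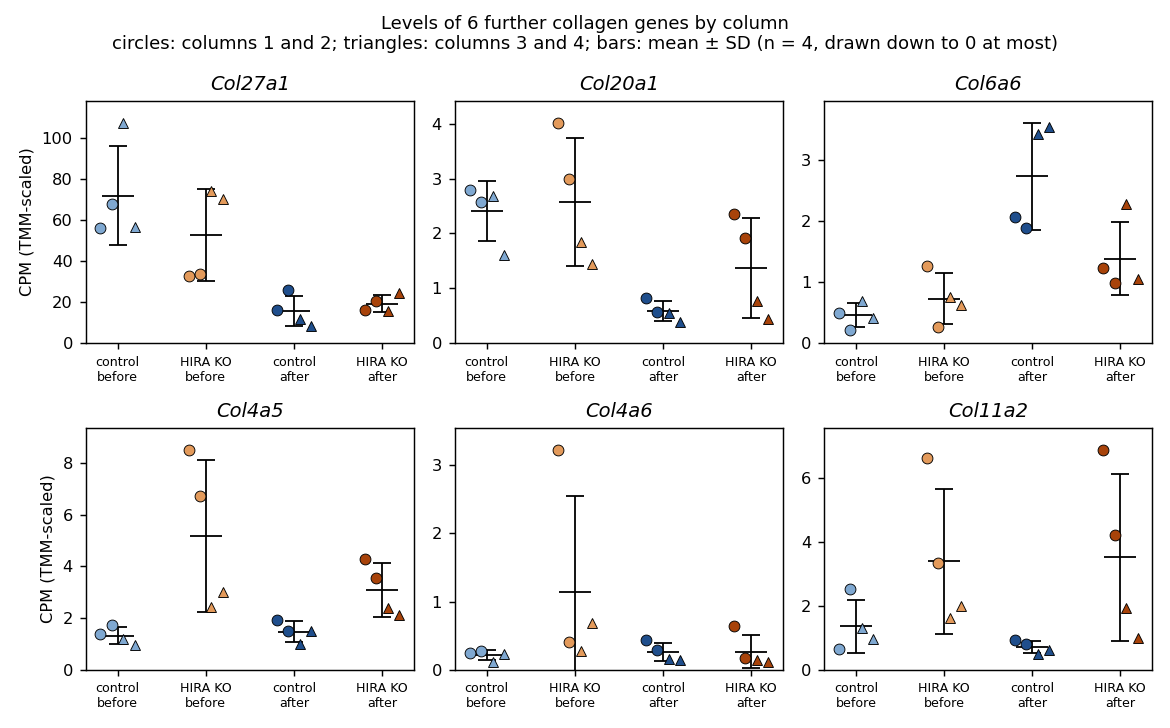
CPM (vertical axis, from 0) of Col27a1, Col20a1, Col6a6, Col4a5, Col4a6 and Col11a2 in each column of the 4 groups; circles are columns 1 and 2, triangles columns 3 and 4, bars mean ± SD of 4 columns. Col27a1 fell from 55.8 CPM or more to 25.7 CPM or less in control, and Col4a5 was higher in every HIRA KO column than in any control column at the same time.

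The comparison of after with before regeneration in control asks how collagen expression in the regrown liver compares with that of the lobes removed 5 days earlier. Here 4 of the 39 members passed, where 10.2% of all genes did. The fit treated columns before and after as independent, although mice were sampled at both times. Higher after regeneration were Col6a6, an alpha chain of type VI, and Col4a1, and lower were Col27a1, a fibrillar chain with a shortened helix, and Col20a1, a fibril associated chain. In the fit 24 members were higher and 15 lower, with a median log2 fold change of 0.34 (0.31 with the member at 0 counts in 1 group set to its bound) against 0.00 over all genes. Groups did not overlap for 8 members, where 19.0% of all genes had no overlap: Col1a1, Col1a2, Col4a1, Col5a2, Col6a6 and Col15a1 were higher and Col20a1 and Col27a1 lower in every column after regeneration.

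Col27a1 showed the deepest fall. It stood at 55.8, 67.9, 107 and 56.6 CPM before and at 16.1, 25.7, 11.9 and 8.45 CPM after regeneration in control. The log2 fold change was -2.21 ± 0.38 (adjusted p = 0.00278, edgeR), and it passed in each of the 21 alternatives. Col20a1 stood at 2.79, 2.58, 2.69 and 1.60 CPM before and at 0.814, 0.573, 0.545 and 0.384 CPM after (log2 fold change -2.06 ± 0.46, adjusted p = 0.00829, edgeR). It passed in 18 of 21 alternatives and not in the 3 fits of FPKM in limma, where the adjusted p was 0.0508 to 0.112. An exon of BX649560.1 overlaps Col20a1 on the same strand.

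Col6a6 stood at 0.497, 0.215, 0.687 and 0.414 CPM before and at 2.07, 1.89, 3.43 and 3.55 CPM after, a log2 fold change of 2.58 ± 0.43 (adjusted p = 0.00139, edgeR) that passed in each of the 21 alternatives. Col4a1 stood at 28.8 to 34 CPM before and at 60.3, 77.6, 34.8 and 73.0 CPM after (log2 fold change 0.96 ± 0.26, adjusted p = 0.0308, edgeR, and 0.00423 to 0.136 over its 21 alternatives). The lowest column after regeneration was only just above the highest before it. Its call was lost when control columns 1, 2, 3 or 4 before or 1, 2 or 4 after were left out, with adjusted p of 0.0508 to 0.102 in edgeR, and held without control column 3 after.

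The type I and III chains were higher in the fit and did not pass. Col1a1 went from 9.99 ± 2.64 to 38.8 ± 30.3 CPM (SD, n = 4; log2 fold change 1.96 ± 0.72, adjusted p = 0.114, edgeR). Col1a2 went from 12.5 ± 2.84 to 37.8 ± 21.1 CPM (1.59 ± 0.55, adjusted p = 0.0892, edgeR), and Col3a1 from 24.9 ± 4.80 to 65.4 ± 25.2 CPM (1.39 ± 0.53, adjusted p = 0.121, edgeR). For Col1a1 and Col1a2 the lowest column after regeneration, column 3, was just above the highest column before it. Col4a2 had a log2 fold change of 0.77 ± 0.26 (adjusted p = 0.0813, edgeR). Without HIRA KO columns 1 and 2 in the fit 10 members passed, Col1a2, Col3a1 and Col5a2 among them, where 16.4% of all genes passed.

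In HIRA KO 3 of the 39 members passed between after and before, where 12.0% of all genes did: Col27a1 was lower, and Col9a2 and Col22a1 were higher. In the fit 16 members were higher and 23 lower, with a median log2 fold change of -0.24 against 0.02 over all genes. Without HIRA KO columns 1 and 2, 20 were higher and 19 lower, with a median of 0.037 against 0.034 over all genes. With only column 1 before regeneration left out, 22 were higher and 17 lower (median 0.16 against 0.070), so the sign of the median turned in both settings. Groups did not overlap in CPM for 5 members, where 16.1% of all genes had no overlap: Col9a2 and Col22a1 were higher and Col17a1, Col18a1 and Col27a1 lower in every column after regeneration. Col17a1 rested on 1, 2, 1 and 3 counts before and 1, 1, 1 and 0 after. In the deposited FPKM the groups overlapped for all of these members except Col27a1.

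Col27a1 stood at 32.6, 33.9, 74.2 and 70.02 CPM before and at 16.2, 20.4, 15.6 and 24.4 CPM after (log2 fold change -1.46 ± 0.37, adjusted p = 0.0210, edgeR, and 0.000432 to 0.175 over its 21 alternatives). All 4 columns after were below all 4 before, but the call was lost without HIRA KO column 3 or 4 before (adjusted p = 0.0644 and 0.0673, edgeR) and without column 1 or 3 after (0.0553 and 0.0605). Without HIRA KO columns 1 and 2 the log2 fold change was -1.85 (adjusted p = 0.0615, edgeR).

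The 2 higher members rested on few reads as well. Col9a2, a fibril associated chain of cartilage, had 0 counts before and 5, 1, 1 and 4 counts after (adjusted p = 0.0440, edgeR). Against a floor of 3 counts over the group before, these counts gave 2.83-fold, without allowance for their own error. The deposited FPKM of Col9a2 was not 0 throughout before regeneration, at 0.0752 in HIRA KO column 1, against 0.0130 to 0.197 after. Col22a1 had 2, 0, 0 and 1 counts before and 9, 12, 4 and 3 counts after (log2 fold change 2.67 ± 0.83, adjusted p = 0.0446, edgeR). Its call was lost when any HIRA KO column other than column 1 before or column 4 after was left out, and that of Col9a2 when any column other than 2 or 3 after was left out. With 1 column left out at a time the number of calls in HIRA KO ran from 0, without column 4 before, to 3.

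The type I and III chains did not pass in HIRA KO, where columns 1 and 2 were already high before regeneration. Col1a1 went from 30.8 ± 26.6 to 47.4 ± 25.0 CPM (log2 fold change 0.62 ± 0.69, adjusted p = 0.622, edgeR), and in columns 1 and 2 alone the log2 fold change was -0.09. Col1a2 had a log2 fold change of 0.42 ± 0.53 (adjusted p = 0.675, edgeR) and Col3a1 of 0.31 ± 0.51 (adjusted p = 0.756, edgeR). Without HIRA KO columns 1 and 2, Col3a1 had a log2 fold change of 1.72 (adjusted p = 0.0370, edgeR) and was called with Col5a2, Col7a1 and Col20a1, 4 members in all, where 9.54% of all genes passed. Col4a1 and Col4a2 had log2 fold changes of 0.32 ± 0.26 and 0.37 ± 0.26 (adjusted p = 0.472 and 0.402, edgeR). With the running number as a block, 6 members passed in HIRA KO, where 15.5% of all genes passed: Col22a1 higher, and Col4a6, Col7a1, Col18a1, Col20a1 and Col27a1 lower. Differently numbered columns of the same pair also deviated together, so the number is not shown to mark a mouse.

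**Figure D5:**
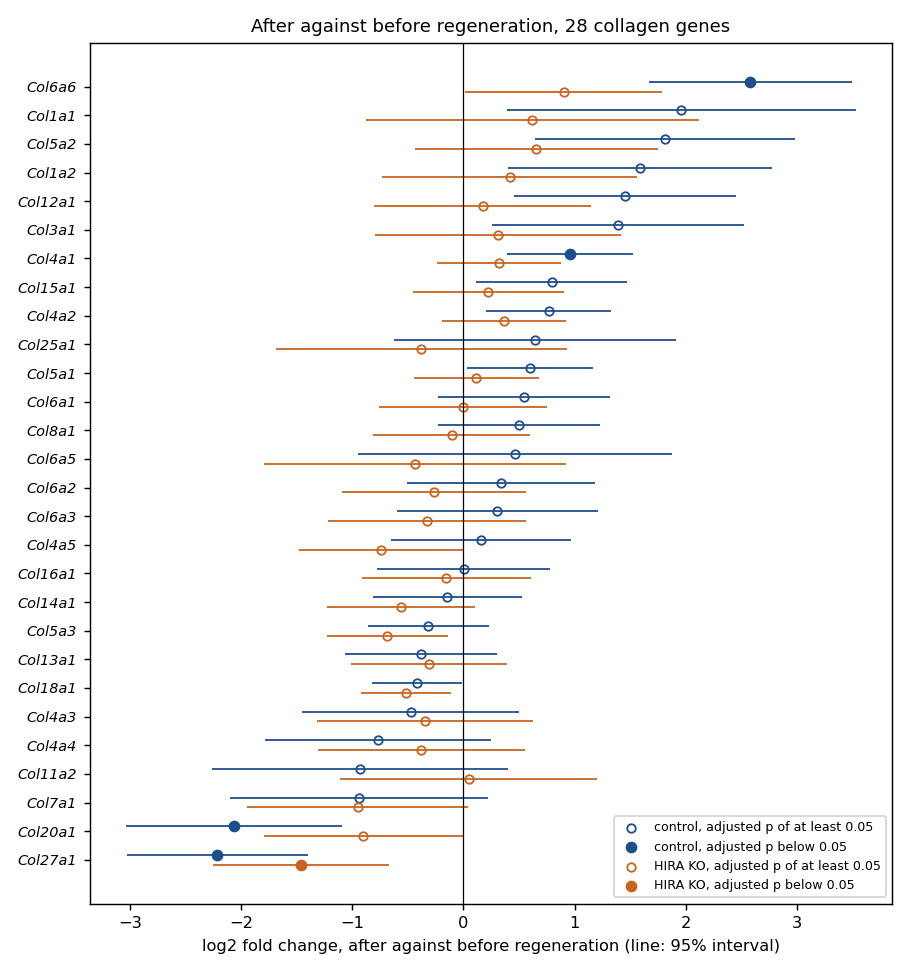
log2 fold change of after against before regeneration (horizontal axis, line 95% interval) in control (blue) and HIRA KO (orange) for the 28 collagen genes with a mean of at least 0.5 CPM; filled points passed an adjusted p of 0.05 in edgeR. Col27a1 was called lower in both genotypes (-2.21 in control and -1.46 in HIRA KO), while Col6a6 and Col4a1 were called higher and Col20a1 lower in control.

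The interaction asks whether the change from before to after differed between the genotypes. No member passed it (0% of all genes passed), 2 had an unadjusted p below 0.05 (6.81% of all genes), and DESeq2 called 0 (0.291% of all genes). The smallest p was that of Col6a6, which stood in HIRA KO at 1.27, 0.267, 0.748 and 0.626 CPM before and at 1.22, 0.977, 2.28 and 1.06 CPM after regeneration. Its rise was smaller in HIRA KO than in control in the fit (difference of log2 fold changes -1.68 ± 0.60, adjusted p = 0.569, edgeR). Next came Col4a6 (-2.29 ± 1.08, adjusted p = 0.732) and Col9a2 (3.51 ± 1.77, adjusted p = 0.751). Among the abundant chains the differences were -1.34 ± 0.99 for Col1a1, -1.18 ± 0.76 for Col1a2, -1.08 ± 0.73 for Col3a1, -0.64 ± 0.37 for Col4a1 and -0.40 ± 0.37 for Col4a2 (adjusted p = 0.776 to 0.868, edgeR). The intervals leave room for sizeable differences, as that of Col1a1 runs from -3.49 to 0.80. When HIRA KO columns 1 and 2 were left out, the differences of Col1a1, Col1a2 and Col3a1 turned to 0.41, 0.23 and 0.33.

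The chains of 1 trimer were compared per length by their FPKM ratio in each column. The ratio of Col1a1 to Col1a2 ran from 0.514 to 1.14 over the 16 columns with a median of 0.759, that of Col4a1 to Col4a2 from 1.48 to 2.56 with a median of 1.78, and that of Col6a1 to Col6a2 from 1.07 to 1.86 with a median of 1.53. The ratio of Col6a3 to Col6a1 ran from 0.483 to 1.44. The ratio of Col5a1 to Col5a2 ranged most, from 1.45 to 7.28. In control it was 6.23, 4.87, 4.44 and 7.28 before and 2.36, 3.76, 2.76 and 2.52 after regeneration, with no overlap. By an exact two-sided permutation test this difference had p = 0.0286, the smallest that 4 against 4 columns allow, and an adjusted p of 0.571 over the 20 tests of 5 ratios in 4 comparisons, so that none of the 20 passed.

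By class, the fibrillar chains had the highest median log2 fold change in HIRA KO before regeneration among classes with more than 1 member tested, 1.33. Of their 9 tested members 8 were higher and none was called, where 0.0391% of all genes were. The 6 basement membrane chains had a median of 0.60 (5 higher), the 6 beaded filament chains 0.77 (5 higher) and the 4 anchoring and short chain collagens 0.85 (4 higher), while the 7 fibril associated chains had 0.10 and the 2 multiplexins -0.32. In columns 3 and 4 alone the medians were -0.034 for fibrillar, 0.065 for basement membrane, -0.076 for beaded filament and 0.10 for anchoring and short chain collagens. After against before in control 10.2% of all genes were called. There the beaded filament chains had a median of 0.46 with 6 of 6 higher and 1 called. The fibrillar chains had 0.60 with 6 of 9 higher and 1 called lower, and the basement membrane chains 0.18 with 4 of 6 higher and 1 called. The multiplexins had 0.19 and the fibril associated chains 0.00 with 1 called lower, while the anchoring and short chain collagens had -0.71 and the transmembrane chains -0.49, each with 1 of 4 higher. These lists were chosen with earlier results of these data known.

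Other members with a mean of at least 0.5 CPM are given by their range over the 16 columns. Among fibrillar chains Col5a1, which nucleates fibrils, ran from 7.03 to 19.3 CPM, its partner Col5a2 from 2.25 to 18.7 and Col5a3 from 30.1 to 112. The beaded filament chain Col6a1 ran from 8.23 to 32.5 CPM, Col6a2 from 5.01 to 25.9, Col6a3 from 7.28 to 33.0 and Col6a5 from 0.0888 to 1.11. For Col5a2, Col6a1, Col6a2 and Col6a3 the highest column before regeneration was HIRA KO column 1, as it was for 23 of the 39 members.

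Of the fibril associated chains, Col14a1 ran from 22.2 to 100.0 CPM, Col16a1 from 1.69 to 8.73 and Col12a1 from 0.861 to 7.01. Col14a1 was highest in HIRA KO columns 1 and 2 before regeneration (91.0 and 100.0 CPM against 39.6 to 46.5 in the other 6). Col15a1 ran from 7.95 to 31.2 CPM and the transmembrane chains Col13a1 from 1.80 to 6.33 and Col25a1 from 0.118 to 1.88. The basement membrane chains Col4a3 and Col4a4 ran from 0.167 to 1.04 and from 0.240 to 1.53 CPM, the anchoring fibril chain Col7a1 from 0.188 to 2.17, and Col8a1, a short chain of vascular and corneal matrix, from 0.647 to 2.06.

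The remaining members were close to the detection limit. Their total counts over the 16 columns were 139 for Col4a6, 110 for Col9a3, 104 for Col23a1, 102 for Col8a2, 99 for Col24a1, 57 for Col22a1, 19 for Col17a1, 17 for Col9a2, 14 for Col28a1, 12 for Col10a1 and 11 for Col6a4, and at this depth only large differences in them could be detected.

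The genes that fold, cut, cross-link, degrade or bind collagen were read from 7 lists with 70 genes tested, chosen with earlier results known. Before regeneration none of them passed between genotypes in edgeR (0.0391% of all genes did), with 20 at an unadjusted p below 0.05 (13.2% of all genes). These counts include HIRA KO columns 1 and 2 and do not show whether a difference extends to columns 3 and 4. After regeneration 1 passed, where 0.491% of all genes did. Loxl4, a lysyl oxidase that cross-links collagen, stood at 12.5, 13.9, 14.8 and 14.9 CPM in control and at 1.13, 0.888, 5.41 and 3.28 CPM in HIRA KO (log2 fold change -2.39 ± 0.43, adjusted p = 0.0392, edgeR). All HIRA KO columns were below all controls, columns 3 and 4 included. The interaction did not pass for Loxl4 (-1.28 ± 0.65, adjusted p = 0.751, edgeR).

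In control after against before, 11 of the 70 genes passed, where 10.2% of all genes did. Loxl4 rose with a log2 fold change of 2.61 and the related Loxl2 with 1.20 (adjusted p = 0.00208 and 0.0106, edgeR), 2 of the 5 cross-linking genes. Also higher were 1 of 17 chain modification genes (Crtap, part of the prolyl 3-hydroxylase complex, 0.99), 1 of 7 procollagen cleavage genes (Pcolce2, an enhancer of the C-propeptide protease, 1.04) and 2 of 10 breakdown genes (the gelatinase Mmp2, 1.29, and the neutrophil collagenase Mmp8, 3.06). Higher too were 1 of 9 receptors (Lair1, an inhibitory receptor of leukocytes, 0.95) and 2 of 10 fibril partners (Lum, 1.13, and Sparc, 0.94). The protease inhibitor Timp3 (-1.09) and the TGF-beta antagonist Smad7 (-0.61) were lower.

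In HIRA KO after against before 6 of the 70 passed, where 12.0% of all genes did: Crtap (0.82), Pcolce2 (1.38), Lair1 (1.48) and Tgfb1 (0.73) were higher and Timp3 (-1.16) and Smad7 (-0.56) lower. Over the same step all 6 Kupffer cell and macrophage markers were called higher in each genotype, from 126 to 337 CPM summed in control before to 562 to 719 after, and from 163 to 203 CPM before to 531 to 854 after in HIRA KO. All 4 markers of dividing cells were called higher as well. Their part in the collagen and pathway values was not tested.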

How the data were processed

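RNA was sequenced from 16 liver samples in 4 groups of 4. Per the study's methods, the authors trimmed reads with Trim Galore, aligned them to mm10 with STAR and counted them per gene with HOMER, while the submitters' processing notes name STAR, HTSeq and Cufflinks. The deposited gene counts were used as they are, without normalization, and the deposited FPKM values (scaled by the authors to gene length and library size) only for levels per length and as an alternative, with empty cells read as 0. Headers name group and running number, so columns were assigned to groups only. Whether columns of a group are separate mice follows from the study's design text, and p-values measure the spread between these columns.

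Genes with at least 10 counts in total were fitted together over all 16 columns with 4 group means in edgeR 4.0.16 (TMM, quasi-likelihood test, R 4.3.3), with Benjamini-Hochberg adjustment over all 23018 genes and a threshold of 0.05. A second fit had 8 means, for columns 1 and 2 and columns 3 and 4 of each group. Alternatives used other scaling and filters, DESeq2 1.42.0, limma 3.58.1 on log2(FPKM + 0.1) or log2(FPKM + 1), columns left out, and the running number as a block. Ratios of chains were compared by exact permutation tests. The edgeR scripts were tested on simulated data. Depth was 15103059 to 21738619 counts per column, and low counts limit the rare members.

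The members and lists were chosen with earlier results of these data known. Values in every column were given for Col1a1, Col1a2, Col3a1, Col4a1 and Col4a2 and, per comparison, for the members called or, below 3 calls, the 3 with the smallest p. For the interaction, Col4a6 and Col9a2 were not given in every column of all groups. Other members with a mean of at least 0.5 CPM were given by range and the rest by total counts. Further members named for non-overlapping groups or for the pairs of columns were chosen after their values were seen. Same-numbered columns before and after deviated together in HIRA KO (r of deviations from the group means 0.587, 0.386, 0.463 and 0.579) but not in every control pair (0.201, 0.279, 0.0805 and 0.377). In HIRA KO differently numbered columns of the same pair also did (3 with 4 at 0.516, 4 with 3 at 0.426, 2 with 1 at 0.378, 1 with 2 at 0.335), so these values do not show that the number itself marks a mouse. The design text states that mice were sampled at both times. Gene positions are from GENCODE M21 (GRCm38), matched by gene ID for all 39 members. Col21a1 was not analysed here.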

Additional observations from a re-analysis of the deposited data

Results flagged for a closer look

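Among 164 groups of 4 columns, 5 had a single column far from the others by Dixon's criterion, a criterion that chance meets in about 1 group in 20. HIRA KO column 1 before regeneration held 2 of the 5: its smooth muscle markers summed to 110.4 CPM against 2.32 to 8.27 CPM in the other columns of its group, and its mesothelium markers to 12.4 CPM against 0.748 to 1.87. In control after regeneration, Col4a3 stood at 0.688 CPM in column 2 against 0.376 to 0.384 in the others, and Col6a3 at 7.69 CPM in column 3 against 13.6 to 14.8. The markers of dividing cells summed to 7.33 CPM in control column 3 before regeneration against 2.79 to 3.55 CPM.

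The HIRA KO effect after regeneration differed between columns 1 and 2 and columns 3 and 4 for 3 members, tested in edgeR on the difference itself. The pairs were taken up with the distance of HIRA KO columns 1 and 2 already known, so the p-values describe those columns and not the group. The difference in log2 fold change was -1.44 for Col15a1 (adjusted p = 0.0176), 2.87 for Col7a1 (adjusted p = 0.0396) and -1.40 for Col13a1 (adjusted p = 0.0467). What separates these columns is not given by the labels.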

How the results depend on the processing

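The share of all genes called in the same setting is given in brackets after each count. Between genotypes before regeneration, no call became 1 with all genes of at least 1 count (0.105%) or the pair of columns as a term (0.643%). That member was Col4a5 in each. The count was 13 in columns 1 and 2 alone (8.55%) and 3 in DESeq2 (1.66%). After regeneration it was 2 with the pair as a term (3.44%), 8 in columns 1 and 2 alone (12.4%) and 1 in DESeq2 (3.95%). In control, the 4 calls between after and before (10.2%) became 7 under filterByExpr (18%) and 8 with only the groups compared (13.8%). They became 9 with the pair as a term (14.1%) and 10 in DESeq2 (14.2%). Without HIRA KO columns 1 and 2, a setting chosen after seeing the data, there were 10 (16.4%). The share of all genes called was higher in each of these settings as well. In HIRA KO the 3 calls (12.0%) became 1 under filterByExpr (20.5%), 1 with only the groups compared (5.82%) and 7 with the pair as a term (16.6%). They became 6 in columns 3 and 4 alone (12.9%) and 5 in DESeq2 (15.8%). With log2(FPKM + 1) there was 1 (12.9%), and with log2(FPKM + 0.1) unfiltered 0 (5.06%). Leaving out 1 column at a time gave 0 to 1 calls between genotypes before (0.00434% to 0.113%) and after regeneration (0.0217% to 2.19%). It gave 3 to 7 in control (6.60% to 10.1%), 0 to 3 in HIRA KO (7.11% to 12.1%) and 0 for the interaction (0% to 0.0304%).

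With the running number as a replicate block, 8 members were called in control (17.4% of all genes) and 6 in HIRA KO (15.5%). Control columns 1, 2 and 4 correlated best with their own number, and control column 3 did too, but at 0.0805 the control numbers are not taken as pairs. In control the block brought in Col12a1, Col15a1, Col18a1, Col22a1 and Col5a2 and lost Col4a1.

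Directions of single genes turned in these cases, and the cause was not tested. Between genotypes before regeneration, Col1a1, Col1a2 and Col3a1 had log2 fold changes of -0.44, -0.061 and -0.16 in columns 3 and 4 alone, and Col1a1 and Col3a1 of -0.20 and -0.036 without HIRA KO columns 1 and 2. After regeneration, Col1a1 had -0.13 in columns 3 and 4 alone, Col4a1 and Col4a2 had -0.020 and -0.057 in columns 1 and 2 alone, and -0.12 and -0.018 without HIRA KO columns 1 and 2. With 1 column left out there, Col4a1 ran from -0.18 to 0.16 and Col4a2 from -0.081 to 0.34. After against before in HIRA KO, Col1a1, Col1a2 and Col3a1 had -0.089, -0.34 and -0.26 in columns 1 and 2 alone. For the interaction, Col1a1, Col1a2, Col3a1 and Col4a2 had 0.31, 0.19, 0.53 and 0.34 in columns 3 and 4 alone, and Col1a1, Col1a2 and Col3a1 had 0.41, 0.23 and 0.33 without HIRA KO columns 1 and 2. None of these turned values passed the test. Of 862 recomputed values, 762 kept direction and side of the threshold.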
